A study of Mus musculus with 12 samples.

Results

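The comparison described here is that of keratinocytes depleted of the coactivators YAP1 and TAZ with keratinocytes given a control pool of small interfering RNA (siRNA), across all genes. It rests on 6 of the 12 poly(A) RNA sequencing libraries of the series. The members are 3 siYAP1+TAZ libraries and 3 siControl libraries, taken by their labels, and the genes are the 12966 of 17090 deposited genes that reached 1 CPM (reads of a gene scaled to library size, as deposited) in at least 3 of the 12 libraries. The remaining 4124 genes were not tested. The siYAP1+TAZ cells received pooled siRNA against Yap1 and against Wwtr1, the gene of TAZ, and the siControl cells a non-targeting pool, both at 8 pmol per cm2 with a lipid reagent. The Ad-GFP cells, shown as a background, received an adenovirus carrying green fluorescent protein at a multiplicity of infection of 25. The Ad-TEADi cells received an adenovirus carrying an inhibitor of TEAD transcription factors at the same multiplicity. Both virus groups also entered the expression filter and the spread used by the tests. All groups share the rest of the system. The cells were primary keratinocytes from tail skin of K14-SmoM2 mice, a basal cell carcinoma model named for the keratin 14 promoter and for SmoM2, a constitutively active form of the Hedgehog transducer Smoothened, isolated 5 weeks after tamoxifen. They were grown at 60 µM calcium with 10 ng/ml mouse epidermal growth factor (EGF) and 10 µM Y-27632, an inhibitor of the kinase ROCK, and were harvested 48 h after treatment. The animals' age, their number and any pooling are not given in the labels. The labels do not state whether the replicates A, B and C were independent cultures or mice. The tests therefore weigh a difference against the spread among these libraries, and that spread may be technical.

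YAP1 and TAZ carry no DNA-binding domain of their own. They enter the nucleus when the Hippo kinases are inactive, bind TEAD transcription factors and raise the transcription of genes for growth, matrix and the actin cytoskeleton. In skin they are most active in basal keratinocytes, which hold on to the basement membrane, divide, and later leave it to form the spinous, granular and cornified layers. Actin tension through ROCK is one of the inputs that keep YAP1 and TAZ nuclear, and ROCK was inhibited in both groups here.

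The smallest steps between low CPM values put depth at 26.4 to 29.1 M reads in siYAP1+TAZ, 20.04 to 25.1 M in siControl and 21.5 to 28.6 M in Ad-GFP libraries. These depths are estimates, since not all low values fell on such steps. Libraries of 1 group correlated with one another at r of 0.997 to 0.998 over genes, and none stood apart. Both targeted genes were lower. Yap1 had 71.7, 62.5 and 67.2 CPM in the siYAP1+TAZ libraries, against 206, 196 and 187 CPM in the siControl libraries and 208 to 213 CPM in Ad-GFP, a change of -1.54 ± 0.05 (SE) with an adjusted p of 4.7e-16. Wwtr1 stood at 30.02, 26.1 and 28.1 CPM in siYAP1+TAZ libraries, at 56.5, 52.9 and 56.1 CPM in siControl libraries and at 55.0 to 59.9 CPM in Ad-GFP libraries (change -0.95 ± 0.05 (SE), adjusted p = 2.5e-12). Every siYAP1+TAZ library lay below every siControl and Ad-GFP library for both genes. All 10 keratinocyte markers examined (Krt5, Krt14, Trp63, Itga6, Itgb4, Cdh1, Epcam, Col17a1, Dsp and Perp) were tested. They summed to 50260 to 52070 CPM in siYAP1+TAZ, 49050 to 49540 CPM in siControl and 48530 to 51210 CPM in Ad-GFP libraries. Of these markers 4 were higher and 5 lower in siYAP1+TAZ. Their mean share of all CPM was 5.01% in siYAP1+TAZ and 5.54% in siControl. Markers of other cells were low. The 7 deposited fibroblast markers summed to at most 18.4 CPM in siYAP1+TAZ and at most 12.2 CPM in siControl, the 8 melanocyte markers to at most 14.4 CPM in siYAP1+TAZ and 11.4 CPM in siControl, and the 7 endothelial markers to at most 13.2 CPM in siYAP1+TAZ and 11.52 CPM in siControl. The 4 Merkel cell and neural markers summed to 44.0 to 47.0 CPM in siYAP1+TAZ and 65.4 to 69.8 CPM in siControl, with 3 of the 4 lower. The 8 immune markers summed to 52.5 to 54.5 CPM in siYAP1+TAZ and 19.4 to 20.8 CPM in siControl. In siYAP1+TAZ most of this sum came from Cd68, a lysosomal membrane protein best known from macrophages, and its values are given with the surface genes. Markers without a row in the deposited table were not analysed here, and no deposited value is 0. The part of such cells in the results below was not tested. In bulk samples, fewer cells of a kind and less RNA per cell cannot be told apart.

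Knockdown of YAP1 and TAZ changed more genes than it left below the test's threshold, mostly by small steps. The test was passed by 4245 genes (32.7% of the 12966) that were higher in siYAP1+TAZ than in siControl and by 4687 (36.1%) that were lower, at a Benjamini-Hochberg adjusted p below 0.05 in limma. The median absolute change was 0.27 on the log2(CPM + 1) scale, on which every change below is given, and the median standard error of a change was 0.064. At 2-fold or more the directions were unequal, with 970 genes (7.48%) higher and 298 (2.3%) lower. Every siYAP1+TAZ library lay above every siControl library for 4460 genes (34.4%) and below for 4907 (37.8%). Against all 6 siControl and Ad-GFP libraries together these counts were 3793 (29.3%) and 4009 (30.9%). The split depended on scaling. Higher genes made up 47.5% of the calls with the deposited scaling by trimmed mean of M-values (TMM), 39.0% after quantile normalization and 28.4% after each column was scaled to its own total. Scaling to totals lowered the median change of all genes by 0.17, because the deposited values sum to 1017558 ± 1970 CPM in siYAP1+TAZ and 890008 ± 7846 CPM in siControl (SD, n = 3 each). Results with columns scaled to totals are given below for some gene families. A lean of a family given without them is that of the deposited scaling and may change with this shift. For each gene given below by its libraries, the siYAP1+TAZ values overlapped neither the siControl nor, with the exception of Hoxd11, the Ad-GFP values. Most of these genes were picked by a rule that requires no overlap with siControl, so for them that part was fixed in advance.

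The added signal sat in the strongly induced genes. The 970 genes at least 2-fold higher took 16.9%, 17.7% and 17.1% of all CPM in the siYAP1+TAZ libraries, against 5.48%, 5.40% and 5.81% in the siControl libraries and 4.26% to 5.00% in Ad-GFP. These genes were chosen for the rise itself, so the shares describe its size and test nothing. The 298 genes at least 2-fold lower took 0.978% ± 0.0277 of CPM in siYAP1+TAZ and 3.18% ± 0.0490 in siControl (SD, n = 3 each).

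Whether an effect leaned up or down changed with expression level. Among the 1916 genes averaging at least 100 CPM over the 6 siRNA libraries, 50.2% were higher and 29.7% lower, with 962 and 570 genes, but with columns scaled to totals 622 were higher and 948 lower. Between 10 and 30 CPM the order was the other way round, with 25.8% of 3310 genes higher and 44.3% lower. This average contains the siYAP1+TAZ values, so a strongly induced gene moves itself into a higher bin. The genes were also grouped by their mean in Ad-GFP libraries, which are on neither side of the comparison and enter only its filter and spread. Of the 1674 genes at 100 CPM or more in Ad-GFP, 39.1% were higher and 38.5% lower. The 79 genes at 1000 CPM or more in Ad-GFP were 40.5% higher and 44.3% lower, with a median change of -0.04. The lean downward from 10 to 30 CPM stayed, at 28.1% higher and 42.5% lower of 3447 genes. Genes under 1 CPM in Ad-GFP leaned upward, 316 higher and 44 lower of 541, but a gene at that level could pass the filter only by being expressed in another group. Precision also changed with level: the median standard error fell to 0.043 at 100 to 300 CPM, against 0.12 below 3 CPM.

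**Figure D1:**
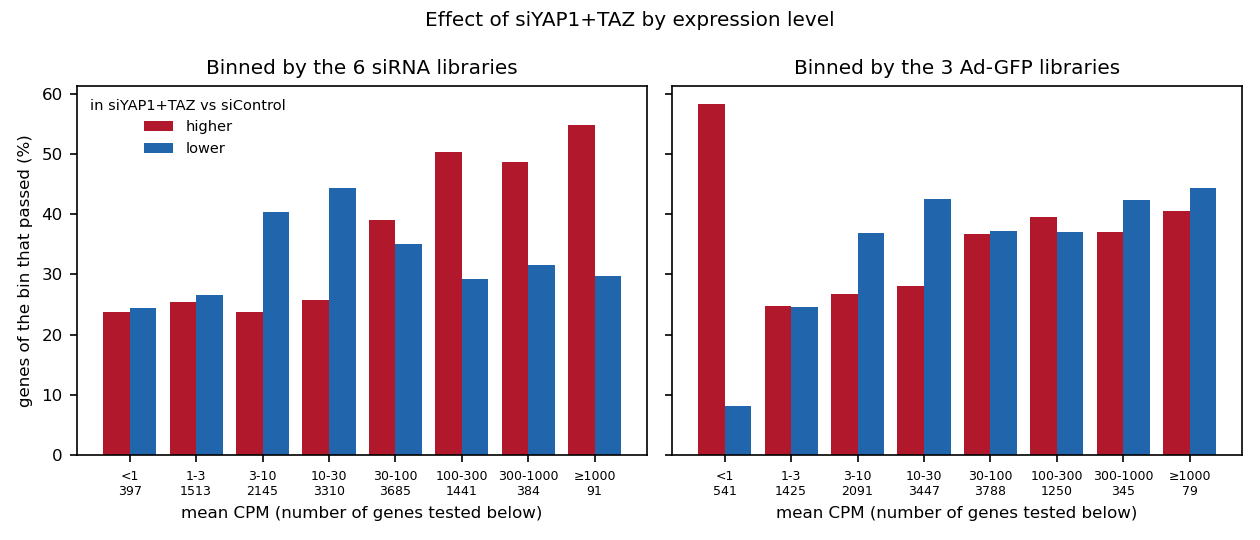
Percentage of tested genes (y axis) that passed as higher (red) or lower (blue) in siYAP1+TAZ against siControl libraries, by mean CPM (x axis, number of genes below each bin). Bins use the 6 siRNA libraries on the left and the 3 Ad-GFP libraries on the right, and the excess of higher genes at 100 CPM or more, 50.2% against 29.7%, is 39.1% against 38.5% on the right.

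At each level a few genes carried the largest steps. Among the most abundant, Sprr1a, a precursor of the cornified envelope, and Calm4, a calmodulin-like gene of the skin, rose by 2.57 and 2.53, and Thbs1, the matrix glycoprotein thrombospondin 1, fell by 2.84. For Thbs1, values of 352, 421 and 414 CPM in siYAP1+TAZ stood against 2766, 2928 and 2780.0 CPM in siControl and 2353 to 2505 CPM in Ad-GFP, which is a change of -2.84 ± 0.06 (SE) (adjusted p = 1.6e-17). The next largest fall at that level was that of Itgb4, the beta subunit of the hemidesmosome integrin, at -0.85. Between 1 and 3 CPM, Gfpt2, an enzyme that starts hexosamine synthesis, had 4.02, 5.62 and 4.37 CPM in siYAP1+TAZ and 0.112, 0.132 and 0.106 CPM in siControl libraries. In the same range Amot, the gene of angiomotin, a junctional partner of YAP1, had 0.944, 0.588 and 0.618 CPM in siYAP1+TAZ and 5.47, 5.25 and 4.56 CPM in siControl libraries, a change of -1.83 ± 0.10 (SE).

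Gene classes differed in how far their members moved. The lists used here name genes by symbol pattern, 100 lists in all, and cover 4312 of the tested genes (33.3%). Secreted and surface genes here mean the members of the lists of that class, which take in whole symbol families. The secreted lists thus also hold inhibitors thought to act mainly inside cells, such as the stefins and Serpinb12. The surface lists hold the secreted Tnfrsf11b and the lysosomal Cd68. Among these classes secreted genes moved most, with a median absolute change of 0.73 over 285 genes. It was 0.44 for 677 surface genes, 0.28 for 708 transcription factors and 0.27 for all genes tested. The 2630 genes of the lists classed as intracellular had 0.23. That class includes 1038 genes named only by clone or model number, with a median of 0.215, whose products were not assigned a place in the cell. Of the secreted genes 67 (23.5%) were at least 2-fold higher and 39 (13.7%) at least 2-fold lower. Of the surface genes 96 (14.2%) and 28 (4.14%) were, and of the transcription factors 56 (7.91%) and 8 (1.13%). With columns scaled to their totals the 2-fold counts were 58 and 53 for secreted genes, 81 and 51 for surface genes and 49 and 20 for transcription factors. Secreted genes took a smaller share of all CPM in siYAP1+TAZ, 3.71% against 4.71% in siControl, while transcription factors took a larger one, 2.83% in siYAP1+TAZ against 2.34% in siControl. These shares count reads and not molecules, since CPM are not divided by gene length.

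**Figure D2:**
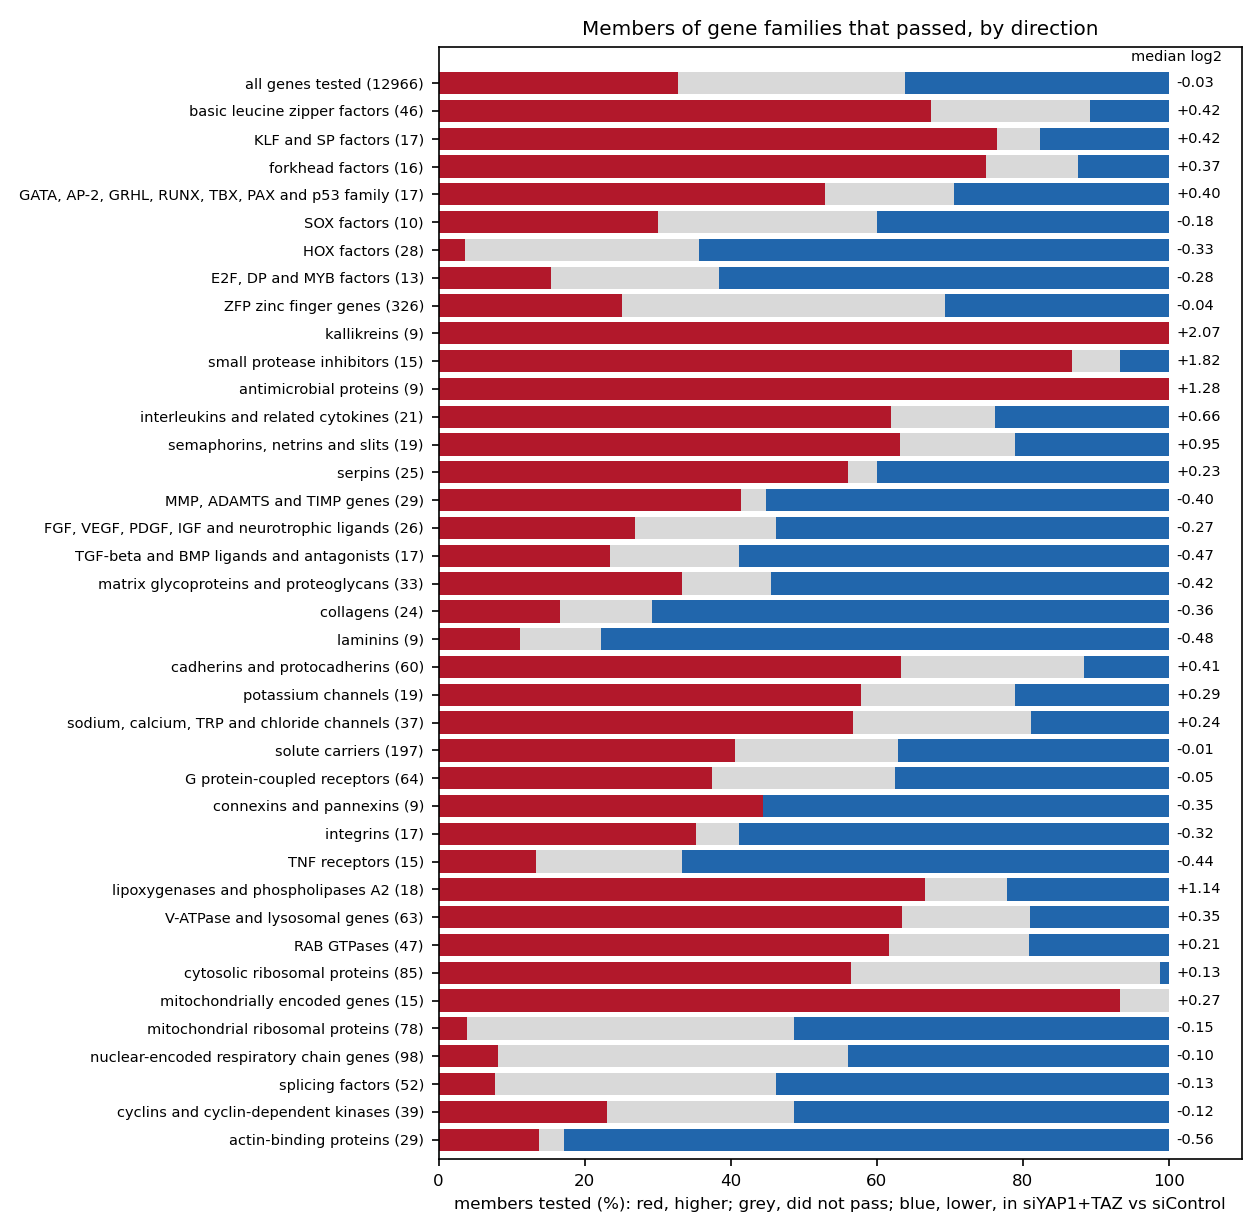
Percentage of the tested members of each family (number in brackets) that passed as higher (red), did not pass (grey) or passed as lower (blue) in siYAP1+TAZ against siControl libraries. The median log2 change stands at the right, and all genes tested, 32.7% higher and 36.1% lower, are in the top row.

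Among transcription factors the basic leucine zipper, KLF/SP and forkhead families leaned upward, and the HOX and E2F/MYB families downward. Basic leucine zipper factors bind DNA as dimers and include FOS, JUN, CREB and C/EBP proteins. Of 46 tested, a count that takes in Cebpz, which is no leucine zipper factor, 31 were higher and 5 lower, with a median change of 0.42, and 24 and 11 were with columns scaled to totals. The largest falls were -0.96 for Jdp2, a JUN dimerization partner, and -0.65 for Creb3l2, a factor tied to secretory load. Rises reached larger sizes. Cebpa, a C/EBP factor that restrains growth in the interfollicular epidermis, had 108, 116 and 115 CPM in siYAP1+TAZ and 26.3, 23.6 and 24.7 CPM in siControl libraries, a change of 2.14 ± 0.07 (SE).

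All 7 FOS and JUN genes of the table passed as higher. They form the dimers of activator protein 1 (AP-1), a factor that takes part both in growth responses and in late epidermal gene expression, and they were singled out after their values had been seen. Fos was at 227, 237 and 233 CPM in siYAP1+TAZ, 62.3, 53.8 and 70.0 CPM in siControl and 31.4 to 37.8 CPM in Ad-GFP libraries, and its change of 1.90 ± 0.07 (SE) had an adjusted p of 1.6e-14. Jun changed by 1.59 ± 0.07 (SE), with 228, 238 and 233 CPM in siYAP1+TAZ, 73.96, 69.4 and 87.1 CPM in siControl and 73.1 to 87.7 CPM in Ad-GFP libraries (adjusted p = 2.3e-13). Changes of the others were 1.28 for Junb, 0.83 for Jund, 0.80 for Fosl1, 0.63 for Fosl2 and 0.52 for Fosb. Dusp1, a phosphatase of MAP kinases that is often induced with them, changed by 2.63 ± 0.09 (SE).

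KLF and SP factors are zinc finger proteins of CACCC and GC boxes. Of 17 tested, 13 were higher and 3 lower, and 5 of the 13 by at least 2-fold. Besides Klf4, which rose by 2.49, the rule for named genes picked Klf3 and Sp6. Levels of Klf3 stood at 646, 658 and 659 CPM in the siYAP1+TAZ libraries, 171, 166 and 192 CPM in the siControl libraries and 127 to 168 CPM in Ad-GFP (change 1.89 ± 0.07 (SE), adjusted p = 1.1e-14). Sp6 had 35.0, 40.1 and 36.4 CPM in the siYAP1+TAZ libraries, against 12.6, 11.7 and 13.4 CPM in the siControl libraries and 9.12 to 9.87 CPM in Ad-GFP, a change of 1.49 ± 0.07 (SE) with an adjusted p of 8.0e-14. Forkhead factors gave 12 higher and 2 lower of 16. Foxn1, the nude gene, which starts spinous differentiation, rose by 1.53, and Foxo3, a factor held in check by growth factor signals, rose by 0.89. Foxn1 stood at 44.7, 46.7 and 46.8 CPM in siYAP1+TAZ libraries, at 16.3, 14.6 and 15.1 CPM in siControl libraries and at 11.9 to 12.2 CPM in Ad-GFP libraries (change 1.53 ± 0.06 (SE), adjusted p = 5.1e-15). Foxm1, a driver of mitotic genes, fell by 0.56.

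Further factors of the differentiating layers rose in smaller families. For Grhl3, values of 387, 422 and 411 CPM in siYAP1+TAZ stood against 63.5, 55.3 and 67.9 CPM in siControl and 44.2 to 54.7 CPM in Ad-GFP, which is a change of 2.69 ± 0.07 (SE) (adjusted p = 5.8e-17). Grhl3 and Grhl1, which rose by 1.82, are grainyhead-like factors of barrier formation. Ovol1 was at 432, 461 and 452 CPM in siYAP1+TAZ, 87.1, 73.8 and 90.8 CPM in siControl and 56.9 to 75.1 CPM in Ad-GFP libraries, and its change of 2.41 ± 0.08 (SE) had an adjusted p of 1.3e-15. Ovol1 ends the cycling of epidermal progenitors, Zfp750 (2.16) is a p63 target that switches on terminal genes, and Prdm1 (1.86) marks late keratinocytes and sebaceous progenitors. Dlx3 changed by 2.44 ± 0.13 (SE), with 54.4, 56.0 and 50.03 CPM in siYAP1+TAZ, 8.17, 8.16 and 11.1 CPM in siControl and 3.71 to 6.66 CPM in Ad-GFP libraries (adjusted p = 1.4e-12). Dlx3 and Dlx5 (2.22) are distal-less homeobox factors. Rora, a retinoid-related orphan receptor, rose by 2.68 and Mxd1, an antagonist of MYC at its partner MAX, by 2.36. For all of these the lowest siYAP1+TAZ library lay above the highest Ad-GFP library and, as the rule for named genes required, above the highest siControl library.

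HOX genes were mostly lower. They encode the homeodomain factors that keep positional identity along the body axis. Of 28 tested, 18 were lower and 1 higher, and the siYAP1+TAZ libraries lay below all siControl and Ad-GFP libraries for 18, against 30.9% of all genes. The median change was -0.33, and it was -0.47 with columns scaled to totals. Levels of Hoxb9 stood at 5.24, 6.50 and 6.30 CPM in the siYAP1+TAZ libraries, 16.1, 15.4 and 15.4 CPM in the siControl libraries and 12.5 to 13.5 CPM in Ad-GFP (change -1.25 ± 0.09 (SE), adjusted p = 1.8e-10). Hoxa10 had 11.95, 10.6 and 12.3 CPM in the siYAP1+TAZ libraries, against 17.8, 16.9 and 17.4 CPM in the siControl libraries and 20.3 to 21.1 CPM in Ad-GFP, a change of -0.55 ± 0.06 (SE) with an adjusted p of 2.7e-07. These genes were of low expression, most of them under 10 CPM. The exception was Hoxd11, picked out after its value was seen, at 6.07, 5.16 and 4.10 CPM in siYAP1+TAZ, 3.33, 2.64 and 2.88 CPM in siControl and 5.21, 4.90 and 5.48 CPM in Ad-GFP libraries, so that it differed from siControl and overlapped Ad-GFP.

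Of the E2F, DP and MYB factors, which regulate entry into S phase and include repressors, 8 of 13 were lower and 2 higher. E2f1 fell by 0.52 and E2f5 by 0.63, while the atypical repressor E2f8 rose by 0.80. Runx2 stood at 6.08, 5.95 and 6.30 CPM in siYAP1+TAZ libraries, at 17.3, 17.5 and 16.4 CPM in siControl libraries and at 18.3 to 19.05 CPM in Ad-GFP libraries (change -1.34 ± 0.06 (SE), adjusted p = 1.6e-13). Runx2 is a factor of bone and hair follicle, and its relative Runx1, a factor of hair follicle stem cells, fell by 0.74. For Sox11, values of 2.24, 3.34 and 2.47 CPM in siYAP1+TAZ stood against 9.03, 9.84 and 8.30 CPM in siControl and 7.46 to 7.88 CPM in Ad-GFP, which is a change of -1.46 ± 0.10 (SE) (adjusted p = 1.1e-10). Sox4 and Sox9, factors of hair follicle and basal cell carcinoma cells, fell by 0.86 and 0.57, while Sox7, which otherwise marks endothelium, had 35.96, 42.7 and 38.2 CPM in siYAP1+TAZ and 5.17, 5.16 and 5.44 CPM in siControl libraries, a rise of 2.67. Of the TEAD factors themselves, 3 of 4 were lower and 1 higher. Tead1 was at 40.4, 37.4 and 41.1 CPM in siYAP1+TAZ, 77.03, 73.5 and 76.7 CPM in siControl and 74.96 to 78.8 CPM in Ad-GFP libraries, and its change of -0.92 ± 0.05 (SE) had an adjusted p of 2.8e-12. Tead3 changed by 1.51 ± 0.06 (SE), with 93.6, 103 and 99.8 CPM in siYAP1+TAZ, 31.995, 33.2 and 36.7 CPM in siControl and 33.2 to 37.7 CPM in Ad-GFP libraries (adjusted p = 1.5e-14). The 326 tested ZFP genes, mostly zinc finger repressors, had a median change of -0.045, with 82 higher (25.2%) and 100 lower (30.7%), both shares below those of all genes.

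**Figure D3:**
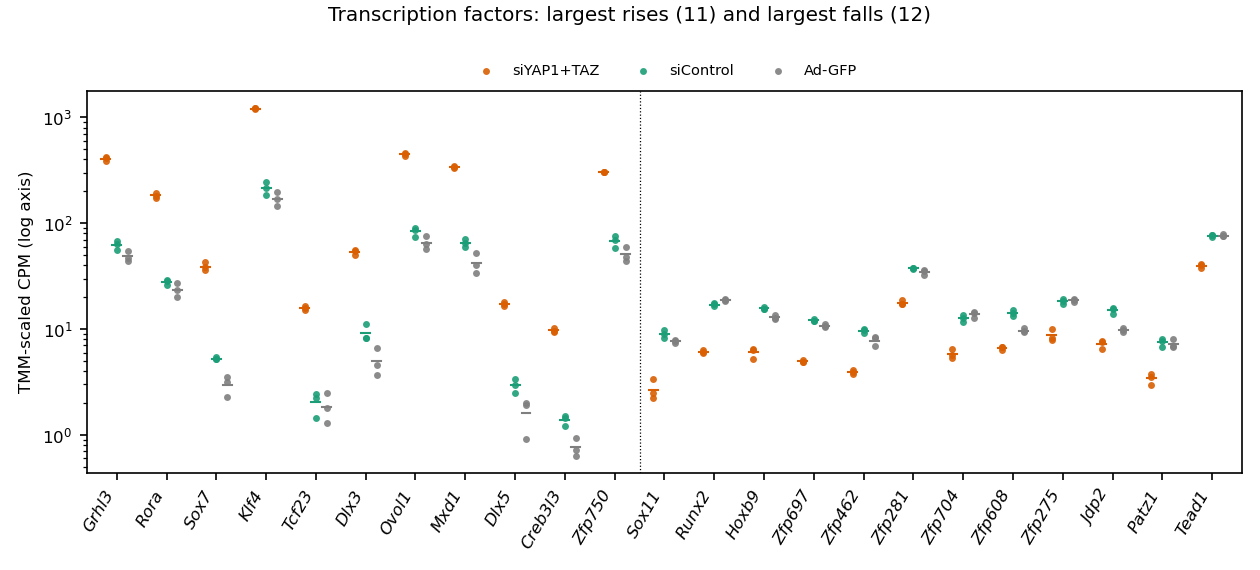
TMM-scaled CPM (log axis) of 11 transcription factors with the largest rises and 12 with the largest falls (x axis, parted by the dotted line) in each of 3 siYAP1+TAZ (orange), 3 siControl (green) and 3 Ad-GFP (grey) libraries, with short bars at the means. Grhl3 lies near 400 CPM in siYAP1+TAZ and near 60 CPM in siControl, and the largest falls, led by Sox11 at -1.46, are smaller than the rises.

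The start sites of these genes were searched for the letters that these factors bind. Windows of 300 bases, 250 before and 50 after the start, came from RefSeq on GRCm38.p6, and the 7706 tested genes (59.4%) with a single window were used. The AP-1 letters TGANTCA, which read the same on both strands, stood in 12.6% of the 557 windows of genes at least 2-fold higher, against 4.98% of all windows, 5.42% of the 166 windows of genes at least 2-fold lower and 4.1% of those of genes that did not pass. The TEAD letters GGAATG, searched on both strands, stood in 15.1% of the windows of genes at least 2-fold lower, against 11.7% of all windows and 13.1% of those of genes at least 2-fold higher. The letters AACCGGTT, bound by grainyhead-like factors and read alike on both strands, stood in 1 of the 557 windows of genes at least 2-fold higher (0.18%) and in 22 of all windows (0.285%). No motif contains another. Base composition differed too, with a median GC content of 59.0% in the 2-fold higher windows, 63.3% in the 2-fold lower and 61.3% in all, and its part in the shares was not tested. A match is a run of letters and not a bound site.

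Windows of 3 genes that fell, with the TEAD letters or their reverse complement in capitals, and of 3 that rose, with the AP-1 letters in capitals, are printed 5′ to 3′ on the gene's strand. They were chosen among named genes for holding a match, and their positions on GRCm38.p6 are chr3:145649936-145650235 (minus strand) for Ccn1, chr7:25788684-25788983 (minus) for Axl, chr16:45409004-45409303 (minus) for Cd200, chr3:92485832-92486131 (minus) for Sprr1a, chr11:73267270-73267569 (plus) for Trpv3 and chr10:44458699-44458998 (minus) for Prdm1.
Ccn1: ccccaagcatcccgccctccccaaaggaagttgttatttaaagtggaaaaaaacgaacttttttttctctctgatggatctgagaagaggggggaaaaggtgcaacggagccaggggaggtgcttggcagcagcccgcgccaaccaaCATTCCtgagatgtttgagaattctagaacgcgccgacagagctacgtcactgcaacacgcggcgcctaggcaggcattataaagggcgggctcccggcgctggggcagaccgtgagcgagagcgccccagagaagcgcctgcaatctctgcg
Axl: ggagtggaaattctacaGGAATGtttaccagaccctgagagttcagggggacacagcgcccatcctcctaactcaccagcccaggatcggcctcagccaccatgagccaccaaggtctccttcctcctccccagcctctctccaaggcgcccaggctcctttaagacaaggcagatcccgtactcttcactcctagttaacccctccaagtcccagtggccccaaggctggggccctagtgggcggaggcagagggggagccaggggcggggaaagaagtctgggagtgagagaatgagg
Cd200: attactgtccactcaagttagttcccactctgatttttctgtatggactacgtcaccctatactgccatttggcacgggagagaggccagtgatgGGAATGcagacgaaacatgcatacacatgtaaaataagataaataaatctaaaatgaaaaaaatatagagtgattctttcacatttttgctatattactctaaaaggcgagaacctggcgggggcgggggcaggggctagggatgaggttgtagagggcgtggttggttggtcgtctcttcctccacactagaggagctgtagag
Sprr1a: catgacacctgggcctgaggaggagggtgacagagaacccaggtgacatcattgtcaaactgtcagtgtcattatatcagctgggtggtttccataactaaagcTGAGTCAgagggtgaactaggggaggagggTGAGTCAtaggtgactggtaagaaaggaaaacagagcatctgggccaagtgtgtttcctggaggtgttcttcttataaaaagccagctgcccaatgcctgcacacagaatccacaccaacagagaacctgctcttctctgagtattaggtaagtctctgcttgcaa
Trpv3: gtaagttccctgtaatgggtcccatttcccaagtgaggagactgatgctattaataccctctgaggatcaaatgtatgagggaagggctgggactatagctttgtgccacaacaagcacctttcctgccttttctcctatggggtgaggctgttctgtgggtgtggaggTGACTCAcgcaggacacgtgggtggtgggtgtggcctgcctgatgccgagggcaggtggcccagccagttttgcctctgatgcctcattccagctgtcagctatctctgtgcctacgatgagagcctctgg
Prdm1: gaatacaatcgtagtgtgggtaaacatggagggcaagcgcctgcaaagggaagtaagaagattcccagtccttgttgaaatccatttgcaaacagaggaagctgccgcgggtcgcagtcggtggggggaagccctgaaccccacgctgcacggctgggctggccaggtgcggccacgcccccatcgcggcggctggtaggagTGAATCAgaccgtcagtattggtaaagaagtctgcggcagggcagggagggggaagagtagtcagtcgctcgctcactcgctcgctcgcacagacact

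In these windows the first match began 103 bases before the start in Ccn1, 233 in Axl, 155 in Cd200, 146 in Sprr1a, 81 in Trpv3 and 48 in Prdm1. The window of Sprr1a held 2 matches to the letters marked in it, and the other 5 held 1 each. The window of Trpv3, which rose, also holds the reverse complement of the TEAD letters, left in lower case. Ccn1 (CYR61) is a matricellular protein and a standard readout of YAP1 and TAZ. Levels of Ccn1 stood at 39.8, 47.0 and 49.0 CPM in the siYAP1+TAZ libraries, 148, 145 and 152 CPM in the siControl libraries and 144 to 149 CPM in Ad-GFP (change -1.69 ± 0.06 (SE), adjusted p = 1.8e-15). Axl is a receptor tyrosine kinase for GAS6 and also a common readout of the pathway. Axl had 96.3, 111 and 111 CPM in the siYAP1+TAZ libraries, against 324, 316 and 309 CPM in the siControl libraries and 474 to 501 CPM in Ad-GFP, a change of -1.57 ± 0.05 (SE) with an adjusted p of 5.0e-16. Cd200 is a surface glycoprotein that restrains myeloid cells and marks hair follicle progenitors. Cd200 stood at 36.6, 41.7 and 42.3 CPM in siYAP1+TAZ libraries, at 182, 179 and 167 CPM in siControl libraries and at 122 to 122.96 CPM in Ad-GFP libraries (change -2.11 ± 0.07 (SE), adjusted p = 7.3e-16). Trpv3 is a warmth-gated calcium channel of keratinocytes. For Trpv3, values of 107, 115 and 107 CPM in siYAP1+TAZ stood against 22.4, 20.4 and 23.4 CPM in siControl and 15.3 to 20.1 CPM in Ad-GFP, which is a change of 2.26 ± 0.07 (SE) (adjusted p = 7.9e-16). In each of these 4 genes the siYAP1+TAZ libraries stood clear of all Ad-GFP libraries and, as the rule for named genes required, of all siControl libraries.

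Among the lists classed as secreted, collagens and laminins were mostly lower, and kallikreins, small protease inhibitors, antimicrobial proteins and interleukins mostly higher. Of 24 collagens 17 were lower and 4 higher, and of 9 laminins, which build the basement membrane, 7 were lower and 1 higher. Col5a2 is a chain of the fibrillar collagen V. Col5a2 was at 11.5, 11.8 and 12.8 CPM in siYAP1+TAZ, 65.8, 61.1 and 59.8 CPM in siControl and 62.8 to 67.9 CPM in Ad-GFP libraries, and its change of -2.28 ± 0.06 (SE) had an adjusted p of 6.0e-17. Lamb3 fell by 0.68 and Lamb1 by 1.03. Lamb2, by 0.15, was the 1 laminin that rose, and it did not pass without siControl replicate C (adjusted p = 0.0523 in limma) or with scaling to totals or quantiles, where no laminin was higher. Laminins took 0.803% ± 0.0210 of CPM in siYAP1+TAZ and 1.52% ± 0.0240 in siControl, and collagens 0.871% ± 0.0220 in siYAP1+TAZ and 1.23% ± 0.0392 in siControl (SD, n = 3 each).

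Kallikreins and small protease inhibitors rose, and other proteases and inhibitors divided. All 9 kallikreins, serine proteases that loosen the outer epidermis, rose by at least 2-fold, from 1.11 for Klk10 to 2.52 for Klk5. Klk5 changed by 2.52 ± 0.10 (SE), with 129, 144 and 135 CPM in siYAP1+TAZ, 22.3, 22.9 and 23.03 CPM in siControl and 9.02 to 14.5 CPM in Ad-GFP libraries (adjusted p = 1.6e-14). Of 15 small inhibitors of the cystatin, SPINK and WFDC kind 13 were higher and 1 lower, and 12 of the 13 rose by at least 2-fold. Levels of Spink7 stood at 46.1, 45.2 and 48.4 CPM in the siYAP1+TAZ libraries, 3.63, 3.35 and 3.85 CPM in the siControl libraries and 1.52 to 3.49 CPM in Ad-GFP (change 3.37 ± 0.13 (SE), adjusted p = 2.0e-14). Stefin genes such as Stfa2 and Stfa3 have near-identical neighbours, so their separate values are uncertain. Serpins were divided, 14 higher and 10 lower of 25. Serpinb12 had 33.8, 34.8 and 33.4 CPM in the siYAP1+TAZ libraries, against 3.11, 2.56 and 4.10 CPM in the siControl libraries and 4.92 to 5.77 CPM in Ad-GFP, a change of 3.06 ± 0.10 (SE) with an adjusted p of 7.3e-16. Serpina3g, a cathepsin inhibitor, fell by 1.96 and Serpinb2, which inhibits plasminogen activators, by 0.99. Of the MMP, ADAMTS and TIMP genes 12 of 29 were higher and 16 lower. Adamts15 stood at 2.31, 4.37 and 3.01 CPM in siYAP1+TAZ libraries, at 36.8, 37.96 and 35.9 CPM in siControl libraries and at 36.9 to 40.1 CPM in Ad-GFP libraries (change -3.19 ± 0.14 (SE), adjusted p = 5.3e-14). Mmp14 and Mmp9, matrix metalloproteinases, fell by 1.20 and 0.98, while Mmp12, Mmp1a and Mmp3 rose by 2.01, 0.89 and 0.81.

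Signal proteins also divided by family. Of 21 interleukins and related cytokines 13 were higher and 5 lower, and 9 of the 13 by at least 2-fold. The rises were led by Il1f8, Il1f6 and Il1f9, older symbols of the interleukin 36 cytokines of barrier skin. For Il1f8, values of 110.02, 111 and 107 CPM in siYAP1+TAZ stood against 14.99, 15.1 and 16.0 CPM in siControl and 7.01 to 13.6 CPM in Ad-GFP, which is a change of 2.75 ± 0.14 (SE) (adjusted p = 5.4e-13). Il1f9 was at 296, 312 and 295 CPM in siYAP1+TAZ, 59.5, 55.6 and 62.9 CPM in siControl and 39.3 to 57.5 CPM in Ad-GFP libraries, and its change of 2.32 ± 0.09 (SE) had an adjusted p of 1.5e-14. Tnf, the gene of tumour necrosis factor, went the other way. Tnf changed by -1.82 ± 0.07 (SE), with 5.17, 5.58 and 5.53 CPM in siYAP1+TAZ, 22.9, 20.96 and 21.4 CPM in siControl and 16.7 to 19.9 CPM in Ad-GFP libraries (adjusted p = 2.1e-14). Lif, a cytokine of the interleukin 6 family, fell by 1.41. All 9 antimicrobial genes rose, among them Pglyrp4, a peptidoglycan recognition protein (98.8, 104 and 97.7 CPM in siYAP1+TAZ and 14.8, 14.4 and 13.5 CPM in siControl), and Defb1, a beta-defensin, by 1.94. Chemokines split evenly, 5 higher and 6 lower of 13.

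Growth factor ligands divided by family, with TGF-beta, BMP and FGF-type ligands leaning downward and EGF family ligands upward. Of 17 TGF-beta and BMP ligands and antagonists 10 were lower and 4 higher, with a median of -0.47, and of 26 FGF, VEGF, PDGF, IGF and neurotrophic ligands 14 were lower and 7 higher, with a median of -0.27. Levels of Tgfb3 stood at 10.3, 10.2 and 11.5 CPM in the siYAP1+TAZ libraries, 50.9, 53.4 and 49.0 CPM in the siControl libraries and 24.7 to 28.3 CPM in Ad-GFP (change -2.16 ± 0.07 (SE), adjusted p = 5.3e-16). Fst, the activin antagonist follistatin, fell by 1.56 and Inhba, the activin subunit itself, by 1.41. Csf1 had 25.4, 31.95 and 28.7 CPM in the siYAP1+TAZ libraries, against 98.6, 91.7 and 88.4 CPM in the siControl libraries and 166 to 175 CPM in Ad-GFP, a change of -1.67 ± 0.06 (SE) with an adjusted p of 8.5e-15. Csf1 is the macrophage growth factor CSF1, and its siControl level was itself below the Ad-GFP level. Of 8 EGF family ligands, which activate the EGF receptor and its relatives, 5 were higher and 2 lower, with a median of 0.488. Areg, Ereg and Epgn rose by 1.51, 1.26 and 1.175. Vegfa, the main angiogenic ligand, rose by 1.11 and Bmp7 by 1.15. Among WNT genes the median change was near 0 and the changes were large, with Wnt9a at 7.16, 8.08 and 8.62 CPM in siYAP1+TAZ and 48.03, 46.8 and 46.0 CPM in siControl libraries, and Sfrp1, a WNT antagonist, rising by 2.61. Semaphorins, netrins and slits, which steer axons and vessels, gave 12 higher and 4 lower of 19, and 9 rose and 2 fell by at least 2-fold. Slit3 stood at 21.2, 19.06 and 17.8 CPM in siYAP1+TAZ libraries, at 2.92, 3.001 and 3.50 CPM in siControl libraries and at 2.80 to 3.07 CPM in Ad-GFP libraries (change 2.30 ± 0.09 (SE), adjusted p = 9.9e-15). For Sema3c, values of 104, 105 and 114 CPM in siYAP1+TAZ stood against 323, 353 and 334 CPM in siControl and 493 to 506 CPM in Ad-GFP, which is a change of -1.64 ± 0.05 (SE) (adjusted p = 4.2e-16). Ntn4, a netrin of basement membranes, fell by 1.76.

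**Figure D4:**
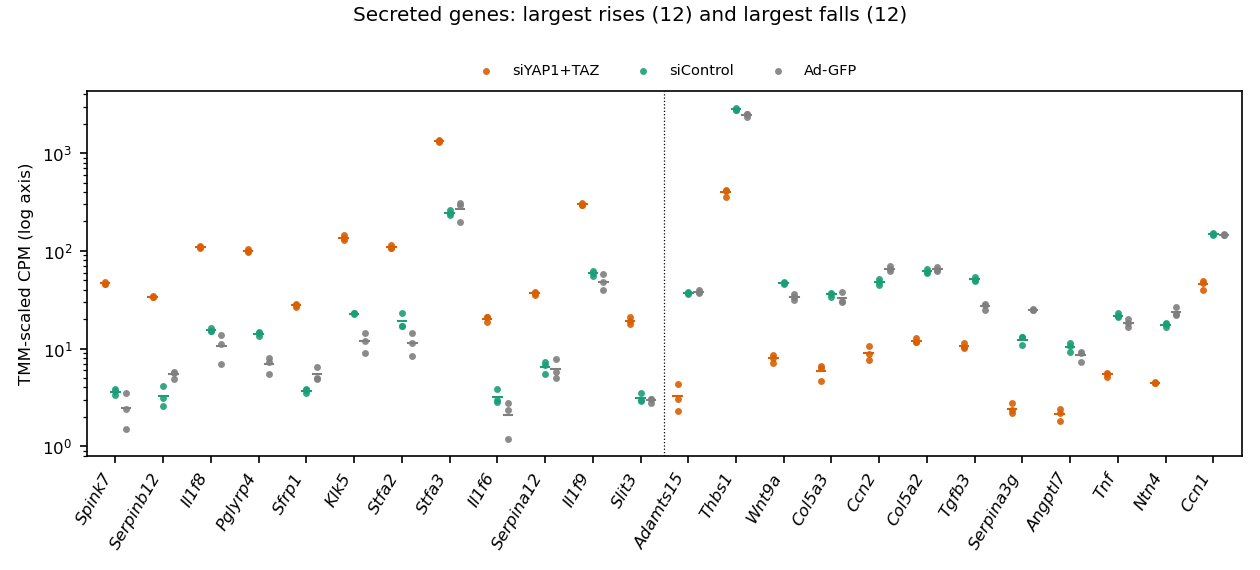
TMM-scaled CPM (log axis) of the 12 genes of the secreted lists with the largest rises and the 12 with the largest falls (x axis, parted by the dotted line) in each of 3 siYAP1+TAZ (orange), 3 siControl (green) and 3 Ad-GFP (grey) libraries, with short bars at the means. Spink7 rose by 3.37 and Adamts15 fell by 3.19. In each of the 24 genes the siYAP1+TAZ points lie apart from the siControl points, as the rule that chose them required.

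Surface genes of cell contact changed by family as well. Cadherins and protocadherins, which join cells, gave 38 higher and 7 lower of 60, with a median change of 0.41. Dsc1 was at 1303, 1405 and 1314 CPM in siYAP1+TAZ, 169, 176 and 195 CPM in siControl and 73.03 to 144 CPM in Ad-GFP libraries, and its change of 2.89 ± 0.14 (SE) had an adjusted p of 3.5e-13. Dsg1a and Dsg1b, desmogleins of the upper layers whose near-identical sequences make their separate values uncertain, rose by 2.74 and 2.54. The falls were led by Fat1, a giant atypical cadherin, at -0.92 and by Dsg2, a desmoglein of basal cells, at -0.87. Integrins, which hold cells to the matrix, gave 10 lower and 6 higher of 17. Itgb6 changed by -1.91 ± 0.04 (SE), with 46.0, 47.2 and 49.6 CPM in siYAP1+TAZ, 178, 189 and 179 CPM in siControl and 219 to 226 CPM in Ad-GFP libraries (adjusted p = 2.5e-17). Integrins took 0.467% ± 0.00739 of CPM in siYAP1+TAZ and 0.844% ± 0.0234 in siControl (SD, n = 3 each). Connexins, the gap junction proteins, divided, with 4 higher and 5 lower of 9. Levels of Gjb6 stood at 758, 756 and 745 CPM in the siYAP1+TAZ libraries, 168, 154 and 181 CPM in the siControl libraries and 48.6 to 76.96 CPM in Ad-GFP (change 2.16 ± 0.10 (SE), adjusted p = 2.4e-13). Gjb2 and Gja1 rose by 1.57 and 1.00, while Gjb5 fell by 0.98.

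Among receptors the TNF receptor family was mostly lower, with 10 of 15 lower and 2 higher, and the Eph receptors and ephrins, which signal between touching cells, mostly higher, with 10 of 15 higher and 3 lower. Tnfrsf11b had 2.76, 3.45 and 3.01 CPM in the siYAP1+TAZ libraries, against 29.7, 27.5 and 23.5 CPM in the siControl libraries and 65.3 to 77.9 CPM in Ad-GFP, a change of -2.77 ± 0.09 (SE) with an adjusted p of 1.2e-15. Tnfrsf11b encodes osteoprotegerin, a secreted decoy receptor, and its siControl level was below its Ad-GFP level. Tnfrsf1a, the main receptor for tumour necrosis factor, rose by 1.14. Of 26 receptor tyrosine kinases 11 were higher and 10 lower. Fgfr3 stood at 133.5, 136 and 133 CPM in siYAP1+TAZ libraries, at 32.9, 31.6 and 34.5 CPM in siControl libraries and at 46.7 to 53.1 CPM in Ad-GFP libraries (change 1.99 ± 0.05 (SE), adjusted p = 4.4e-17). Tyro3, of the same family as Axl, rose by 1.66 and Erbb3, a partner of the EGF receptor, by 1.42. Notch3 and Notch2, receptors of the spinous switch, rose by 1.61 and 0.97, while the ligands Jag1, Dll1 and Jag2 fell by 0.85, 0.79 and 0.46. Of 36 genes in the cytokine receptor list, which also holds the secreted antagonist Il1rn, 15 were higher and 17 lower, with Il20rb and Il22ra1 rising by 2.10 and 2.06 while Il18rap and Il18r1, both interleukin 18 receptor genes, fell by 1.96 and 1.85. G protein-coupled receptors gave 24 in each direction of 64. At 2-fold or more 16 (25.0%) rose and 5 (7.81%) fell, against 7.48% and 2.3% of all genes, so rises outnumbered falls in both. For Cxcr2, values of 20.4, 22.7 and 20.8 CPM in siYAP1+TAZ stood against 2.73, 1.99 and 3.25 CPM in siControl and 1.74 to 2.20 CPM in Ad-GFP, which is a change of 2.62 ± 0.12 (SE) (adjusted p = 8.5e-14). Gpr161, a cilium receptor that dampens Hedgehog signalling, fell by 1.57, to 22.9, 26.2 and 25.2 CPM in siYAP1+TAZ libraries, against 72.4, 78.4 and 75.9 CPM in siControl libraries.

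Channels and transporters were mostly higher or divided. Sodium, calcium, TRP and chloride channels gave 21 higher and 7 lower of 37, and potassium channels 11 and 4 of 19. With columns scaled to totals these were 15 and 11, and 9 and 5. Scnn1b was at 32.2, 31.5 and 33.1 CPM in siYAP1+TAZ, 5.06, 4.28 and 5.72 CPM in siControl and 1.93 to 3.33 CPM in Ad-GFP libraries, and its change of 2.47 ± 0.11 (SE) had an adjusted p of 1.2e-13. Scnn1b and Scnn1a (2.25) encode subunits of the epithelial sodium channel. All 4 aquaporins rose by at least 2-fold. Aqp3 changed by 1.94 ± 0.05 (SE), with 967, 1038 and 992 CPM in siYAP1+TAZ, 249.7, 265 and 266 CPM in siControl and 192 to 219 CPM in Ad-GFP libraries (adjusted p = 9.0e-17). Aqp3 carries water and glycerol in basal keratinocytes. Solute carriers, 197 tested, were divided, with 80 higher and 73 lower and a median of -0.01. At 2-fold or more 22 (11.2%) rose and 3 (1.52%) fell, against 7.48% and 2.3% of all genes. Levels of Slc28a3 stood at 23.9, 25.3 and 23.99 CPM in the siYAP1+TAZ libraries, 3.33, 3.09 and 3.57 CPM in the siControl libraries and 1.21 to 1.83 CPM in Ad-GFP (change 2.55 ± 0.09 (SE), adjusted p = 2.7e-15). Slc28a3 is a nucleoside transporter. Slc2a5 had 15.6, 14.5 and 15.9 CPM in the siYAP1+TAZ libraries, against 46.8, 47.0 and 45.8 CPM in the siControl libraries and 49.2 to 52.9 CPM in Ad-GFP, a change of -1.54 ± 0.06 (SE) with an adjusted p of 9.0e-15. Slc2a5 is the fructose transporter GLUT5. Lipid pumps Abca12, which loads lamellar granules, and Abcg1 rose by 2.08 and 2.06, and the drug pump Abcg2 fell by 1.10. Cd68 had 37.6, 38.9 and 37.6 CPM in siYAP1+TAZ, 9.40, 10.1 and 10.4 CPM in siControl and 9.24, 9.58 and 11.1 CPM in Ad-GFP libraries. Of the 5 immune markers tested 3 were higher, Cd68, Lyz2 and Itgam, and 1 was lower, Csf1r, and all 4 are named after their values were seen. Lyz2, a lysozyme of macrophages, had 9.54, 10.1 and 10.4 CPM in siYAP1+TAZ and 5.73, 5.65 and 4.49 CPM in siControl libraries, and Itgam, an integrin of myeloid cells, rose by 0.46. Csf1r, a macrophage receptor, had 0.315, 0.22 and 0.425 CPM in siYAP1+TAZ and 1.16, 1.06 and 1.02 CPM in siControl libraries.

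**Figure D5:**
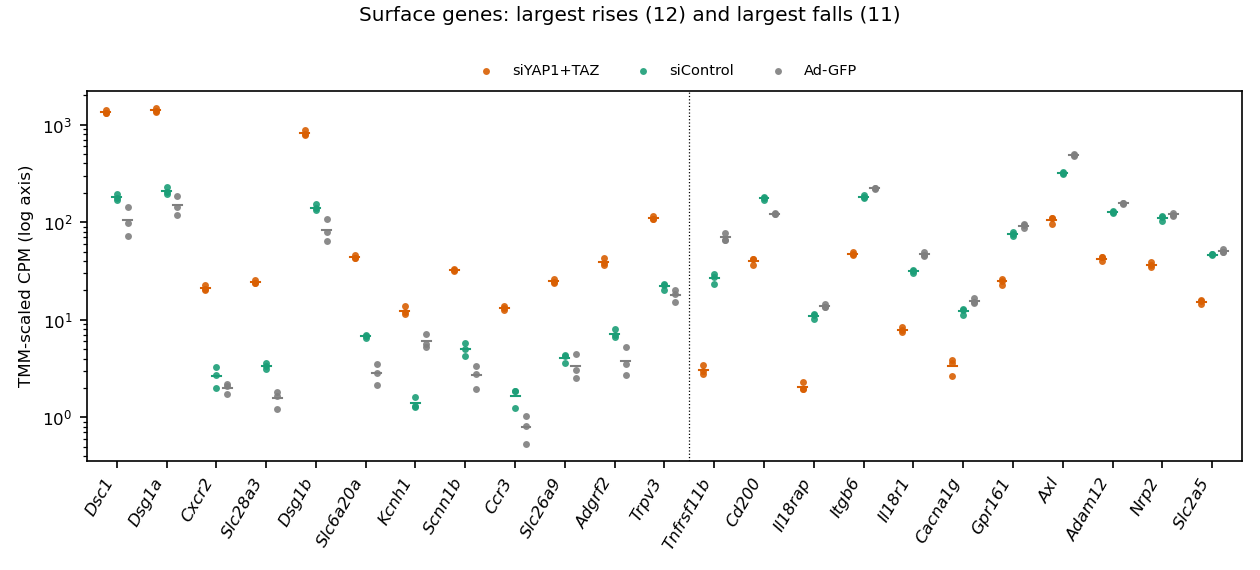
TMM-scaled CPM (log axis) of 12 genes of the surface lists with the largest rises and 11 with the largest falls (x axis, parted by the dotted line) in each of 3 siYAP1+TAZ (orange), 3 siControl (green) and 3 Ad-GFP (grey) libraries, with short bars at the means. Dsc1 rose by 2.89 and Tnfrsf11b fell by 2.77. In each of the 23 genes the siYAP1+TAZ points lie apart from the Ad-GFP points and, as the rule that chose them required, from the siControl points.

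Inside the cell, changes of whole machineries were small and shared by many members. Mitochondrial ribosomal proteins leaned downward, with 40 of 78 lower and 3 higher and a median change of -0.155, and so did the nuclear-encoded respiratory chain genes, with 43 of 98 lower and 8 higher. Mrps36 stood at 12.3, 11.9 and 11.8 CPM in siYAP1+TAZ libraries, at 16.8, 17.5 and 16.5 CPM in siControl libraries and at 13.8 to 16.3 CPM in Ad-GFP libraries (change -0.46 ± 0.07 (SE), adjusted p = 5.0e-06). None of the mitochondrial ribosomal genes changed by 2-fold. Transcripts of the mitochondrial genome were higher, 14 of 15, with a median of 0.27, but with columns scaled to totals 3 were higher and 1 lower. Cytosolic ribosomal proteins were higher, 48 of 85 against 1 lower, with a median of 0.13, but with columns scaled to totals 5 were higher and 26 lower, and after quantile normalization 4 and 28, so their direction followed the scaling. Splicing factors gave 28 lower and 4 higher of 52, and nucleoporins 11 lower and 2 higher of 19, and these falls were more numerous with scaling to totals or quantiles.

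Lysosomal genes leaned upward as deposited and with scaling to totals or quantiles, and the RAB GTPases of vesicle traffic did so as deposited. Of 63 V-ATPase and lysosomal genes 40 were higher and 12 lower, with a median of 0.355. For Smpd1, values of 161.4, 173 and 176 CPM in siYAP1+TAZ stood against 32.4, 31.2 and 30.7 CPM in siControl and 22.3 to 26.5 CPM in Ad-GFP, which is a change of 2.40 ± 0.06 (SE) (adjusted p = 3.2e-17). Smpd1 encodes acid sphingomyelinase, an enzyme that releases ceramide for the lipid barrier. Of 47 RAB genes 29 were higher and 9 lower, led by Rab27b (1.76), which drives granule release, and with columns scaled to totals 16 were higher and 18 lower. Rab32, a RAB of lysosome-related organelles, went the other way. Rab32 was at 17.9, 19.2 and 20.4 CPM in siYAP1+TAZ, 69.8, 64.2 and 63.3 CPM in siControl and 96.7 to 106 CPM in Ad-GFP libraries, and its change of -1.73 ± 0.06 (SE) had an adjusted p of 4.2e-15. Of 18 lipoxygenase and phospholipase A2 genes 12 were higher and 4 lower, and 9 of the 12 rose by at least 2-fold. Alox12b changed by 3.26 ± 0.14 (SE), with 247, 259.9 and 252 CPM in siYAP1+TAZ, 26.98, 21.2 and 28.8 CPM in siControl and 8.22 to 16.0 CPM in Ad-GFP libraries (adjusted p = 6.0e-14). Alox12b is the lipoxygenase of the skin barrier. In the fatty acid list Acsl1 and Elovl4 rose by 2.56 and 2.13, and the 3 neighbouring desaturases Fads2, Fads1 and Fads3 fell by 1.21, 1.12 and 1.02.

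Genes of the actin cytoskeleton and the cell cycle were mostly lower. Of 29 actin-binding proteins 24 were lower and 4 higher, with a median of -0.56. All 24 lay below every siControl and Ad-GFP library, against 30.9% of all genes. Levels of Tagln stood at 7.34, 8.85 and 8.54 CPM in the siYAP1+TAZ libraries, 45.7, 39.9 and 42.2 CPM in the siControl libraries and 58.8 to 65.4 CPM in Ad-GFP (change -2.24 ± 0.07 (SE), adjusted p = 7.1e-16). Tpm1 had 433, 448 and 467 CPM in the siYAP1+TAZ libraries, against 1264, 1205 and 1307 CPM in the siControl libraries and 1344 to 1420.3 CPM in Ad-GFP, a change of -1.48 ± 0.04 (SE) with an adjusted p of 2.0e-16. Tagln encodes transgelin and Tpm1 a tropomyosin that stabilises actin filaments. Myl9, a myosin light chain, fell by 1.69, while the myosins Myh14 and Myo5b rose by 2.58 and 2.54. Of 13 tubulins 9 were lower and 4 higher, and Tuba1a fell by 1.47 while Tubb2a rose by 1.77. Of 39 cyclins and cyclin-dependent kinases 20 were lower and 9 higher. Ccnd1 stood at 179, 188 and 195 CPM in siYAP1+TAZ libraries, at 397, 377 and 389.7 CPM in siControl libraries and at 413 to 421 CPM in Ad-GFP libraries (change -1.05 ± 0.04 (SE), adjusted p = 5.8e-15). Ccnd2, the other D-type cyclin of G1 named by the rule, fell by 1.35.

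Some large changes stood side by side along the chromosomes. Counting runs of at least 3 neighbouring tested genes that all passed at 2-fold in 1 direction, there were 39 runs of higher genes and 4 of lower genes. Genes at least 2-fold higher made up 7.48% of all genes tested and those at least 2-fold lower 2.3%. Unequal shares alone give unequal numbers of runs, and the numbers to be had without any grouping were not tested. On mm10 the 9 kallikrein genes from Klk13 to Klk5 (chr7:43712567-43851181) formed 1 run with a median change of 2.07, and the 6 genes from Il1f8 to Psd4 (chr2:24153161-24414954) another with 2.23. A further run of 9 genes, most of them named by clone or model number, lay on chromosome 5 with a median of 2.08. The genes at the ends of runs are named after their values were seen. The stefin cluster on chromosome 16 held 8 genes and the Tmprss11 serine proteases on chromosome 5 held 6. Members of such clusters are relatives and often share sequence, so they are not independent of each other, and the labels do not say how shared reads were counted. The runs of lower genes were Prl2c3, Prl2c2 and Prl2c5 of the prolactin family, whose near-identical copies make single values uncertain, the Fads genes on chromosome 19, Ankk1, Ttc12 and Ncam1 on chromosome 9, and Bex1, Tceal9 and Bex3 on the X chromosome.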

How the data were processed

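Poly(A) RNA of 12 libraries in 4 groups of 3 was sequenced, and the 3 siYAP1+TAZ and 3 siControl libraries are compared here. Per the submitters' processing notes, cutadapt 1.18, STAR 2.7.0f, Partek 8.0.19.0819 and the mm10 build were used. The labels state neither the counting rule nor its use of strand. The authors deposited CPM scaled by TMM, per the file headers. Only 83.3% to 85.4% of low values in a library fell on whole reads, short of the 95% set for a count model, so no count model was fitted. The authors also deposited a comparison table with p-values and q-values, ratios and signed fold changes, and mean signal per group and total per gene on the CPM scale, per the file headers. The test behind it is not stated there, and only its ratios and adjusted p-values were used, as an alternative.

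Genes were kept if 3 or more of the 12 libraries reached 1 CPM, and their log2(CPM + 1) values were fitted with limma 3.58.1 (R 4.3.3) with a mean-variance trend. All 12 libraries entered 1 fit, which shares their spread, with no covariate. Two-sided p-values were adjusted by the Benjamini-Hochberg method across the 12966 genes, and a gene passed below 0.05. Errors of changes are limma standard errors. An exact permutation test of 3 against 3 libraries cannot go below p = 0.1 and was not used. Named genes are, per list, the 3 largest changes each way that passed with a mean of at least 5 CPM and no overlap of the groups, per class the 12 largest, and per expression bin the 2 largest. Some genes that the rule names are not reported here. Members and lists were chosen with earlier results of these data known. The Ad-TEADi libraries entered the filter and the fit only. Gene positions came from GENCODE on the same build as the files, and promoter windows from RefSeq on GRCm38.p6. Alternatives changed the pseudocount, filter, scaling, libraries in the fit and replicate block. The correlations of same-lettered deviations, -0.0136, 0.0874 and 0.0276, do not pair the libraries.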

Additional observations from a re-analysis of the deposited data

How the results depend on the processing

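The count of lower genes was 7146 with columns scaled to totals, against 4687. Genes at least 2-fold lower numbered 495 with a pseudocount of 0.1 CPM, 146 with 5 CPM, 189 among genes averaging at least 10 CPM and 515 with columns scaled to totals, against 298. The authors' deposited table, over 17090 genes, holds 1737 genes at least 2-fold higher and 795 lower at an adjusted p below 0.05. Among genes of at least 100 CPM, 622 were higher and 948 lower with columns scaled to totals, and 614 and 957 after quantile normalization, against 962 and 570, so the lean upward at high expression reversed under both. Bins by the Ad-GFP mean were added after the data were seen. Leaving out 1 library at a time gave 4001 to 4120 higher genes, 4317 to 4522 lower, 950 to 982 at least 2-fold higher and 295 to 323 at least 2-fold lower. Among genes of at least 100 CPM it gave 915 to 951 higher and 526 to 566 lower. With the replicate block, 4296 genes were higher and 4765 lower, and 970 and 298 by at least 2-fold; the letters do not pair the libraries. Most of the 170 genes named in the text were chosen as large changes that passed, so their stability says little about other genes. Of these 170, 166 kept their direction and their side of the threshold in each of the 16 alternatives that tested them. The other 4 were Lamb2, at -0.035 with columns scaled to totals, Dsp, at 0 after quantile normalization, and Krt14 and Cebpz, which did not pass in the reported comparison. Krt14 passed among genes averaging at least 10 CPM (adjusted p = 0.0423 in limma), and Cebpz was at -0.18 with columns scaled to totals (adjusted p = 0.00427 in limma). Where depth limits a value, as below 3 CPM, the median standard error was about 0.12, against 0.043 at 100 to 300 CPM.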
